A study of Mus musculus with 6 samples.

Results

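Tmem50b, Cryzl1, Psmg1, Pigp, Hlcs, Slc5a3, Ttc3, Dop1b, Urb1 and Cfap298 are genes of distal mouse chromosome 16 that serve membrane traffic, metabolism and the upkeep of proteins, ribosomes and cilia. Ts1Cje mice carry them in 3 copies in place of 2. The 10 genes were taken by name, and every probe set whose platform symbol was one of them and no other gene was used, which gave 26 of the 45037 probe sets that are not controls. Most of them act outside the nucleus, with Urb1, a nucleolar protein, as the clear exception, so that they are described here as trisomic genes of mixed function.

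Gene expression was measured on Affymetrix mouse arrays in neurospheres, free-floating clusters grown from stem and progenitor cells of the lateral ventricle walls, where the adult subventricular zone lies. The 3 Ts1Cje and 3 disomic arrays came from female C57BL/6 mice that were 84 days old, with the disomic mice being littermates, and all cultures were 7 days old. Ts1Cje mice carry a translocation of distal chromosome 16 that arose during the targeting of Sod1, which lies at the border of the trisomic segment. Nothing in the sources used here says that animals were pooled, and the p-values below measure the spread between these 6 samples.

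A gene present in 3 copies is transcribed from 3 templates, and with no compensation its RNA would reach 1.5 times the disomic level, a difference of 0.585 on the log2 scale. Several of these genes encode 1 part of a larger assembly whose other parts lie on other chromosomes and stay at 2 copies. Examples are Psmg1, which pairs with Psmg2 to build the ring of the proteasome, and Pigp, a subunit of the enzyme that makes the first sugar-lipid of the glycosylphosphatidylinositol (GPI) anchor.

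Differences are given as M, the log2 intensity averaged over the Ts1Cje arrays less the disomic average. The average over all 6 arrays is A, and a probe set counts as expressed where A is above 5. Intensities of different probe sets do not compare RNA amounts, because probes bind with unequal strength. In a whole culture, a change in the share of a cell type cannot be told apart from a change of RNA per cell.

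After normalization across arrays, the medians were 2.69 to 2.71, near the lowest deposited value of 2.23. Correlations between arrays were 0.992 to 0.997 over all probe sets. Such closeness does not show that the cultures were alike. Of 8 stem cell and astrocyte markers Gfap fell short of the expressed level, at A 4.87, but varied widely between arrays. It gave 5.42, 5.72 and 3.61 on disomic and 2.37, 5.745 and 6.36 on Ts1Cje arrays. The other 7 were expressed. Aqp4, the astrocyte water channel, did not overlap between the genotypes, with 10.65, 11.26 and 10.78 on disomic and 11.41, 11.77 and 11.95 on Ts1Cje arrays and an M of 0.81 (95% interval 0.18 to 1.44), while the other 6 overlapped, with M from 0.00 to 0.22. Of the progenitor markers with a probe set 3 of 4 were expressed and overlapped, with Mki67, a gene of dividing cells, at an M of -0.41 (interval -1.01 to 0.20). One of them, Olig2 (M -0.03, interval -0.35 to 0.29), is itself a gene of the trisomic segment. Copy number and cell share cannot be told apart in its value. Of the neuronal markers only Map2 (M -0.10) and of the oligodendrocyte markers only Mbp (M -0.35) were expressed, both with overlap, and 0 of 4 microglial and 0 of 5 vascular markers were. The part of these cell type markers in the results below was not tested. Of the 5 ependymal markers only Dnah11 was expressed, a gene of distal chromosome 12 beside the translocation breakpoint. Dnah11 passed only through its Ts1Cje arrays, with 2.83, 3.09 and 2.90 on disomic and 11.94, 12.54 and 11.97 on Ts1Cje arrays. That gene set the ependymal list mean at 2.59 to 2.69 on disomic and 4.50 to 4.67 on Ts1Cje arrays, while Foxj1, Tmem212, Rsph1 and Ccdc153 were not expressed.

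RNA controls differed between the genotypes. The 3′ minus 5′ difference of the actin control was 1.67 ± 0.15 (SD, n = 3) log2 units on disomic and 2.02 ± 0.21 on Ts1Cje arrays. The same measure for Gapdh was 2.18 ± 0.10 and 2.34 ± 0.09, and the mean of the 18S controls was 11.10 ± 0.78 and 12.22 ± 0.22. For each of the 3 measures the Ts1Cje arrays all lay above the disomic ones (exact permutation test, two-sided, p = 0.1, the smallest that 3 against 3 arrays can give). Their part in the results below was not tested.

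The members were higher in Ts1Cje neurospheres, with a median fold near the copy number ratio. Of the 26 probe sets 21 were expressed, with at least 1 for each of the 10 genes, and M was above 0 for 21 of 21, where 51.6% of all expressed probe sets had M above 0. Their median M was 0.64, a fold of 1.55, with quartiles of 0.42 and 0.81 and a range of 0.23 to 1.20. One of the 21, a probe set of Urb1, passed only through its Ts1Cje arrays, with a disomic mean of 4.91. Where the disomic mean alone had to be above 5, 20 probe sets of 9 genes were left with a median M of 0.59, a fold of 1.51, against 0.00 for all probe sets so chosen. The median M over all 26 probe sets, dim ones included, was 0.50. On single arrays the median deviation of the 21 expressed probe sets from their own mean was -0.26, -0.24 and -0.37 on the disomic arrays and 0.30, 0.32 and 0.31 on the Ts1Cje arrays.

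**Figure D1:**
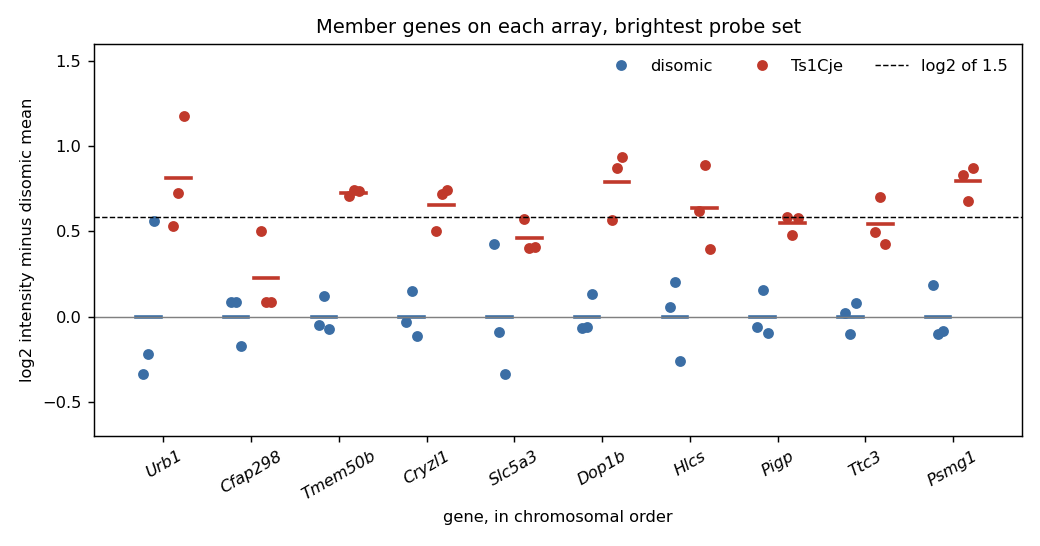
Log2 intensity of each array minus the disomic mean (vertical axis) for the brightest probe set of each of the 10 genes, in chromosomal order, with points for arrays, short bars for group means of 3 and the dashed line at the log2 of 1.5. The Ts1Cje points lie wholly above the disomic points for 7 genes, and the groups overlap for Urb1, Cfap298 and Slc5a3.

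Counted by probe set, 13 of 21 (61.9%) had all Ts1Cje arrays above all disomic arrays, against 5.53% of all expressed probe sets. A moderated t above 4, the cutoff used in the study, was reached by 7 of 21 (33.3%), against 0.965% of all expressed probe sets. The 95% interval of M lay above 0 for 11, against a background of 3.3%. No member passed an adjusted p of 0.05 in limma (smallest adjusted p = 1.0). Over all probe sets 1 of 45037 passed (0.00222%), a probe set of Dnah11. An unadjusted p below 0.05 in limma was found for 11 of the 21 member probe sets, against 1011 of the 16371 expressed probe sets. The fit borrowed little across probe sets, with prior degrees of freedom of 0.336, so that each was judged almost wholly by its own 6 arrays.

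Taken by the brightest probe set of each gene, 6 of 10 genes had a moderated t above 4, against 1.13% of all expressed genes, and these were Tmem50b, Psmg1, Pigp, Dop1b, Cryzl1 and Ttc3. With Hlcs added, 7 of 10 had groups that did not overlap, against 6.12%. Urb1 is in none of these counts except the 10, and 6 and 7 of 9 genes are left without it.

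Psmg1, proteasome assembly chaperone 1, had 1 probe set. Its log2 intensities were 8.88, 8.59 and 8.60 on the disomic arrays and 9.52, 9.37 and 9.56 on the Ts1Cje arrays. The groups did not overlap, and the disomic array of replicate 1 stood nearest to the Ts1Cje arrays. M was 0.79 (SE 0.11, moderated t = 7.52), a fold of 1.73 with a 95% interval of 1.42 to 2.11. Of 6 expressed partners in the assembly of the proteasome 2 had M above 0, the median M was -0.01 and 0 passed the cutoff in either direction. Psmg2, with which Psmg1 forms a dimer, gave 9.83, 10.49 and 9.57 on disomic and 10.06, 9.50 and 9.19 on Ts1Cje arrays, with overlapping groups and an M of -0.38 whose 95% interval ran from -1.35 to 0.59. It rested on single arrays, being -0.12 without the disomic array of replicate 2, -0.18 without the Ts1Cje array of replicate 3, -0.62 without the Ts1Cje array of replicate 1 and -0.58 without the disomic array of replicate 3.

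Pigp, the GPI anchor subunit, also had 1 probe set and a narrow spread. It gave 9.65, 9.86 and 9.61 on the disomic arrays and 10.29, 10.18 and 10.29 on the Ts1Cje arrays, and the groups did not overlap. M was 0.55 (SE 0.08, moderated t = 6.60), a fold of 1.46 with an interval of 1.25 to 1.71. Of the 6 expressed genes of the same step, 2 had M above 0, with a median M of -0.14, and 0 passed the cutoff. Piga, the catalytic subunit, gave 8.89, 9.02 and 8.34 on disomic and 8.60, 7.80 and 7.95 on Ts1Cje arrays. Its groups overlapped, and its M of -0.63 had an interval of -1.46 to 0.20.

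Ttc3, a tetratricopeptide repeat protein that acts as a ubiquitin ligase on Akt kinases, lies head to head with Pigp. In RefSeq (GRCm38.p6) one of the 4 Pigp starts lies 29 bases before the Ttc3 start, on the opposite strand, and others lie 189 and 409 bases before it. The remaining Pigp start lies 276 bases past the Ttc3 start, so a transcript from it runs back across that start. The stretch below is shown because both genes can start from it. It runs on the plus strand up to the base before the Ttc3 start, chr16:94370681-94370738, and the capitals mark the binding motif of NRF1 (GCGCATGCGC, the same on both strands), found 10 to 1 bases before the Ttc3 start.

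Ttc3 and Pigp: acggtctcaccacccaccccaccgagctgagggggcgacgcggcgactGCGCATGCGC

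The motif was searched on both strands in the 250 bases before each of 32841 RefSeq starts after the member promoters had been read, and 257 (0.783%) held it. Among the 15 member promoters it was found in 3, those of Ttc3 and of 2 Pigp starts, which share the same copy. A match describes the letters only.

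Ttc3 had 7 probe sets, more than any other member, and all were expressed. The brightest (1448361_at) read 12.88, 12.76 and 12.94 on the disomic arrays and 13.36, 13.56 and 13.28 on the Ts1Cje arrays. The next (1416483_at) read 12.18, 12.22 and 12.24 against 12.68, 12.82 and 12.47. Neither overlapped between the genotypes, with M of 0.54 (SE 0.09, moderated t = 5.74) and 0.44 (SE 0.10, moderated t = 4.57), folds of 1.45 and 1.36.

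The other 5 Ttc3 probe sets varied more, and none of them had a moderated t above 4. Probe set 1416484_at gave 7.54, 8.72 and 8.72 on disomic and 9.40, 9.21 and 9.22 on Ts1Cje arrays. Probe set 1416482_at gave 5.73, 6.10 and 6.66 on disomic and 6.68, 7.41 and 7.995 on Ts1Cje arrays. These did not overlap, by a gap of 0.49 in the former and of 0.02 in the latter, and their M was 0.95 (SE 0.38) and 1.20 (SE 0.45). Probe set 1441684_at gave 5.57, 6.72 and 8.29 on disomic and 7.97, 8.02 and 7.76 on Ts1Cje arrays. Probe set 1460077_at gave 5.55, 5.65 and 7.19 against 7.41, 6.86 and 7.06. In both, the disomic array of replicate 3 lay within or above the Ts1Cje arrays, and M was 1.06 (SE 0.76) and 0.97 (SE 0.53). Probe set 1447908_x_at, with 8.47, 8.32 and 7.999 against 8.39, 8.55 and 8.54, had the smallest M of the 7, 0.23 (SE 0.14), and overlapping groups.

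**Figure D2:**
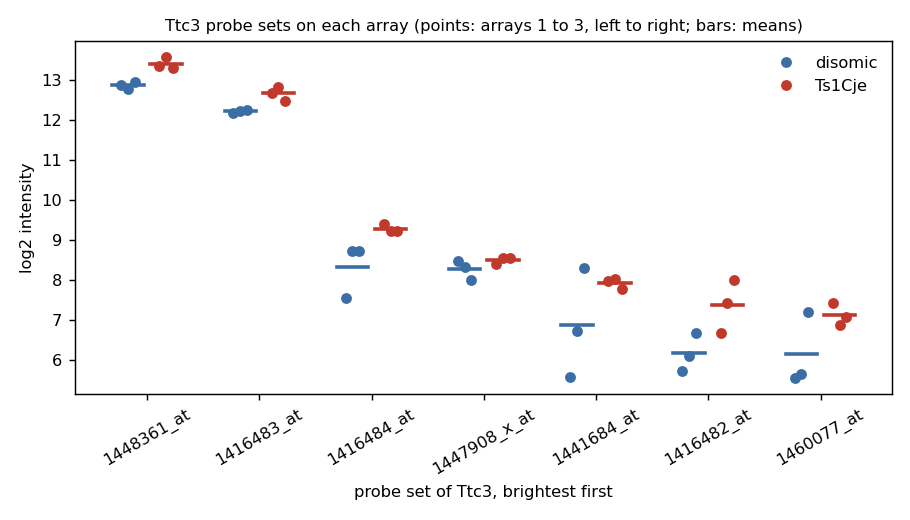
Log2 intensity (vertical axis) of the 7 Ttc3 probe sets, brightest first, with arrays 1 to 3 of each genotype from left to right and bars for the means of 3. The 2 brightest are tight within each genotype, while at 1441684_at the disomic arrays run from 5.57 to 8.29.

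Whether probe sets of 1 gene differ in M was tested on the difference between them on each array. For the 4 genes with several expressed probe sets this gave 29 pairs, and for 28 the 95% interval of the difference held 0. No pair of Ttc3 probe sets was among those that differed, though with 3 arrays a genotype these intervals were wide. Averaged over its 7 probe sets, Ttc3 had an M of 0.77 and no longer a moderated t above 4. The 4 expressed Ttc3 targets and binding partners had a median M of -0.01, with 2 above 0 and 0 past the cutoff. Akt1, a target, gave 9.56, 9.17 and 9.66 against 9.37, 9.55 and 9.66, with overlapping groups and an M of 0.07 (interval -0.38 to 0.51), which changes sign when its probe sets are averaged (-0.08).

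Cryzl1, an oxidoreductase-like protein related to the quinone reductase Cryz, had 4 expressed probe sets. The brightest (1430546_at) gave 10.33, 10.51 and 10.25 on disomic and 10.86, 11.08 and 11.10 on Ts1Cje arrays, with no overlap. Its M was 0.65 (SE 0.11, moderated t = 6.20), a fold of 1.57. Probe set 1451473_a_at gave 8.64, 8.88 and 8.50 against 8.92, 9.21 and 9.11. Probe set 1430547_s_at gave 7.66, 7.90 and 7.48 against 8.23, 8.05 and 8.03. Both had groups that did not overlap and a smaller M, 0.41 (SE 0.14) and 0.42 (SE 0.13). Probe set 1440045_at overlapped, with 6.14, 6.22 and 6.79 against 6.67, 6.77 and 6.70 and an M of 0.33 (SE 0.20).

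The single pair of the 29 whose interval left out 0 was 1451473_a_at minus 1430546_at of Cryzl1, with a difference in M of -0.25 (SE 0.05, 95% interval -0.39 to -0.11). This interval is not adjusted for the 29 pairs, and the exact permutation test of the pair gave p = 0.1, the smallest possible. Averaged over the 4 probe sets, Cryzl1 had an M of 0.45 and its moderated t fell below 4. Among 6 expressed relatives of Cryzl1 the median M was -0.03 with 2 above 0. Ptgr1, a reductase of prostaglandin metabolites, gave 9.71, 9.65 and 9.54 on disomic and 9.39, 9.24 and 9.36 on Ts1Cje arrays, without overlap and with an M of -0.30 (SE 0.07, moderated t = -4.67), a call lost without the disomic array of replicate 1 or 2 or the Ts1Cje array of replicate 3 (M -0.32 to -0.27). A moderated t below -4 was found in 0.812% of expressed probe sets and 0.693% of expressed genes. Cryz gave 11.24, 11.58 and 11.32 against 11.27, 11.20 and 11.49, an overlap with an M of -0.06 (interval -0.41 to 0.29).

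Tmem50b, a small membrane protein of the endoplasmic reticulum and Golgi, had the largest moderated t of the 10 genes. Its probe set gave 9.91, 10.08 and 9.88 on the disomic arrays and 10.66, 10.70 and 10.69 on the Ts1Cje arrays. The lowest Ts1Cje array was 0.58 above the highest disomic array. M was 0.73 (SE 0.06, moderated t = 12.1, unadjusted p = 0.000166 and adjusted p = 1.0 in limma), a fold of 1.66 with an interval of 1.48 to 1.85. The spread within genotypes was an SD of 0.08, and 4.71% of expressed probe sets had a smaller one. Its paralogue Tmem50a was not analysed here.

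Dop1b, which works in traffic between endosomes and the Golgi, gave 5.64, 5.64 and 5.83 on disomic and 6.27, 6.58 and 6.64 on Ts1Cje arrays. The groups did not overlap although the probe set was among the dimmest expressed members, and M was 0.79 (SE 0.13, moderated t = 6.25), a fold of 1.73 with an interval of 1.37 to 2.19. A second probe set was not expressed, with 2.23 on 5 arrays and 2.49 on the Ts1Cje array of replicate 2. Its partners on endosomes and the Golgi were expressed for 7 of 8 genes, with a median M of 0.08 and 5 above 0. Vps29, a retromer subunit, gave 11.32, 11.34 and 11.27 on disomic and 11.51, 11.64 and 11.74 on Ts1Cje arrays, with an M of 0.32 (SE 0.07, moderated t = 4.73). Snx3, a sorting nexin that works with retromer, gave 12.38, 12.30 and 12.37 against 12.48, 12.54 and 12.52, with an M of 0.16 (SE 0.03, moderated t = 5.47). Neither overlapped, and in both the 95% interval stayed below the log2 of 1.5. Vps29 fell below a moderated t of 4 without any 1 of the 3 disomic arrays or the Ts1Cje array of replicate 2 (M 0.30 to 0.34). The paralogue Dop1a overlapped, with 5.31, 5.19 and 5.70 against 5.54, 5.63 and 5.54 and an M of 0.17 (interval -0.24 to 0.58), which ran from 0.06 without the disomic array of replicate 2 to 0.32, past a moderated t of 4, without that of replicate 3.

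Hlcs, holocarboxylase synthetase, attaches biotin to the carboxylases of fatty acid, amino acid and pyruvate metabolism. It gave 6.94, 7.09 and 6.63 on disomic and 7.51, 7.78 and 7.28 on Ts1Cje arrays. The groups did not overlap, but the spread within each was wider than for Pigp or Tmem50b, and M was 0.64 (SE 0.19, moderated t = 3.34), a fold of 1.55. Its interval of M, 0.12 to 1.15, lay above 0 while the moderated t missed the cutoff of 4. The biotin enzymes and supply genes were expressed for 7 of 9, with a median M of 0.00, 4 above 0 and 0 past the cutoff. Pcx, pyruvate carboxylase, gave 8.87, 8.32 and 9.07 against 9.08, 9.16 and 9.57, which did not overlap by a gap of only 0.02, with an M of 0.52 (interval -0.18 to 1.22) that was 0.30 without the disomic array of replicate 2.

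Slc5a3, the sodium-coupled transporter that takes up myo-inositol as an osmolyte, shares its start region with Mrps6, a mitochondrial ribosomal protein gene. The RefSeq starts are 14 bases apart on the same strand. The 250 bases before the Slc5a3 start, chr16:92058072-92058321 on the plus strand, are shown because they precede both genes, with GC boxes (GGGCGG on either strand, overlapping copies counted) in capitals.

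Slc5a3 and Mrps6: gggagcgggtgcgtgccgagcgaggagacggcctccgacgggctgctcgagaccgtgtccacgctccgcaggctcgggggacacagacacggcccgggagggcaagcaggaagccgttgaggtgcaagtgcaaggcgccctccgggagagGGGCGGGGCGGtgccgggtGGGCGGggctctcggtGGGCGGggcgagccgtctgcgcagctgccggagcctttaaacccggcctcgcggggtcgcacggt

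The window holds 4 GC boxes, 2 of them overlapping, and 32.7% of all promoters hold at least 1, as do 10 of the 15 member promoters. Its share of G and C is 74.8%, within the range of 46.0% (Cryzl1) to 76.4% (a Pigp start) among members.

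Slc5a3 was bright and did not separate by genotype. Its brightest probe set (1435484_at) gave 12.19, 11.67 and 11.43 on disomic and 12.33, 12.17 and 12.17 on Ts1Cje arrays. The disomic array of replicate 1 lay above 2 Ts1Cje arrays, and M was 0.46 (SE 0.22, moderated t = 2.07). Without that array M was 0.67 and the moderated t passed 4, while without the disomic array of replicate 3 it was 0.29 and did not. A second probe set (1440227_at) gave 8.62, 7.06 and 7.83 against 8.89, 8.33 and 9.31, an overlap with an M of 1.01 (SE 0.51), and the remaining one was not expressed. Mrps6 itself, also trisomic, gave 11.75, 11.31 and 11.33 against 12.23, 12.13 and 12.66 at its brightest probe set, without overlap and with an M of 0.88 (SE 0.21, moderated t = 4.22). That t fell below 4 without the disomic array of replicate 2 or 3 or the Ts1Cje array of replicate 1 or 3 (M 0.72 to 0.93), and over the mean of its probe sets (M 0.73). Its other probe set (1424440_at) did not overlap either, with 9.26, 8.71 and 9.10 against 9.47, 9.41 and 9.94 and an M of 0.59 (SE 0.23, moderated t = 2.60). The 5 expressed genes of inositol and osmolyte handling had a median M of 0.11, with 4 above 0 and 0 past the cutoff. The taurine transporter Slc6a6, another osmolyte carrier, overlapped, with 8.82, 8.06 and 7.96 against 8.37, 8.27 and 8.52 and an M of 0.11 (interval -0.62 to 0.84).

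Urb1, a nucleolar protein needed to assemble the large ribosomal subunit, was the dimmest expressed member (A = 5.32). It gave 4.58, 4.69 and 5.47 on disomic and 5.44, 5.64 and 6.09 on Ts1Cje arrays. The groups overlapped by 0.03, through the disomic array of replicate 3, and M was 0.81 (SE 0.33, moderated t = 2.48). Without that array M was 1.09 and the moderated t passed 4. All 13 genes listed for assembly of the large subunit were expressed, with a median M of -0.05, 3 above 0 and 0 past the cutoff. Urb2, named with Urb1 for the same process, gave 6.30, 6.12 and 6.31 against 6.46, 6.46 and 6.53, without overlap and with an M of 0.24 (SE 0.06, moderated t = 3.77), which passed 4 without the disomic array of replicate 2 (M 0.18).

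Cfap298, required for the assembly of dynein arms and the beating of motile cilia, had the smallest M of the 10 genes. Its promoter is shown for a sequence feature that the other members lack. The 250 bases before its start are chr16:90934850-90935099 on the minus strand, and the capitals mark X-boxes, the inverted repeats bound by RFX factors in ciliary genes, written as GTTGCC and GGCAAC with 2 or 3 bases between.

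Cfap298: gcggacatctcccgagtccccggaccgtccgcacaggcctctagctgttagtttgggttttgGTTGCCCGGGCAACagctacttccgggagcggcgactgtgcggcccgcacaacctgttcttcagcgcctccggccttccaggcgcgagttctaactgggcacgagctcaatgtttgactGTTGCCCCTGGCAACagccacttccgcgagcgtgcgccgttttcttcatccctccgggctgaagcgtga

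The X-boxes lie 188 to 175 and 69 to 55 bases before the start. At this exact spelling, 34 of 32841 promoters (0.104%) held an X-box of either spacing on either strand, and 1 promoter (0.003%) held both. The motif was chosen after the letters were seen.

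Of the 4 Cfap298 probe sets 2 were expressed and 2 stayed at 2.23 and 2.25 on all 6 arrays. The brightest (1437682_x_at) gave 8.95, 8.95 and 8.69 on disomic and 9.37, 8.95 and 8.95 on Ts1Cje arrays. Its groups overlapped, with 1 deposited value repeated on 3 arrays, as in 385 expressed probe sets (2.35%), and M was 0.23 (SE 0.16). Without the Ts1Cje array of replicate 1 it was 0.09. The other (1424315_at) gave 8.52, 8.35 and 8.12 against 8.82, 8.58 and 8.73, without overlap by a gap of 0.06, and its M was 0.38 (SE 0.13, moderated t = 2.96). Of 11 genes of dynein arm assembly with a probe set 2 were expressed, with a median M of -0.08, so that Cfap298 was measured in cultures where most of that list, and Foxj1, were below the level counted as expressed.

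Set against the copy number ratio, 21 of 21 expressed member probe sets had a 95% interval that contained the log2 of 1.5, against 38.6% of all expressed probe sets. For 10 of the 21 the interval held 0 as well, so that those probe sets separate neither value. By gene, 10 of 10 intervals held the log2 of 1.5 at the brightest probe set, and 3 of these (Urb1, Cfap298 and Slc5a3) held 0 too. The Urb1 probe set passed the intensity filter only through its Ts1Cje arrays. Where the disomic mean had to be above 5, 20 of 20 probe sets and 9 of 9 genes held the log2 of 1.5. Of all probe sets so chosen 38.1% held it. The probe sets farthest from the log2 of 1.5, in moderated t against that value, were 1447908_x_at of Ttc3 below it (t = -2.47) and Tmem50b above it (t = 2.38).

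**Figure D3:**
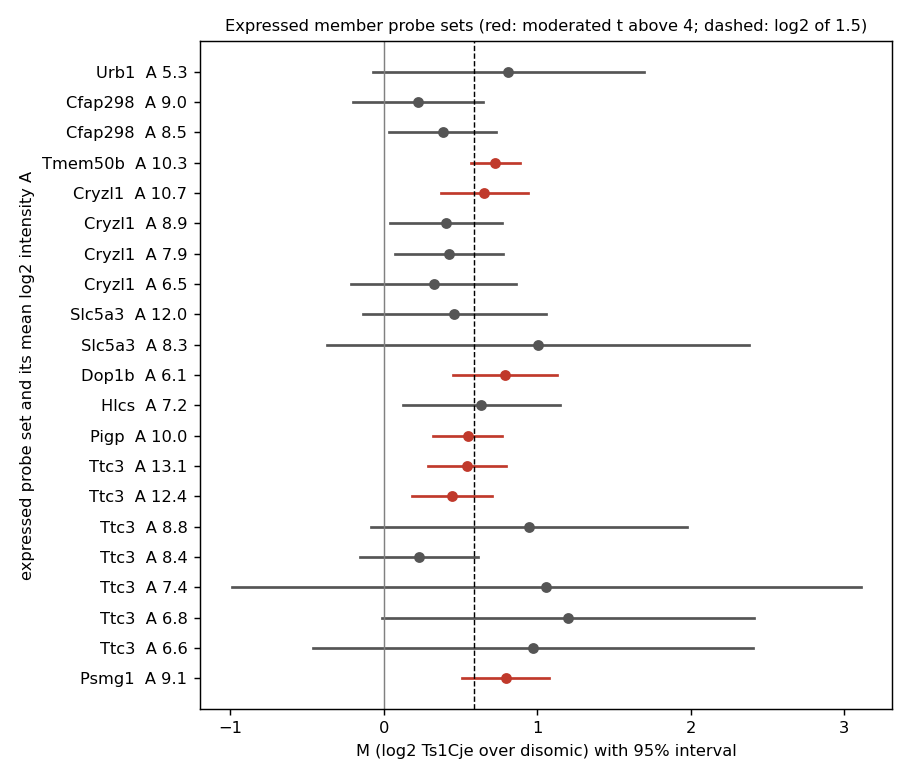
M with its 95% interval (horizontal axis, log2 units) for the 21 expressed member probe sets in chromosomal order, each labelled with its A, with red for a moderated t above 4 and the dashed line at the log2 of 1.5. Every interval crosses the dashed line, 11 lie wholly above 0, and the widest are those of Ttc3 probe sets 1441684_at (A 7.39) and 1460077_at (A 6.62).

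The other trisomic genes were also higher in the Ts1Cje neurospheres in the median. Of their 165 probe sets 59 were expressed, and their median M was 0.51, a fold of 1.42, against 0.64 for the members and 0.01 for the 16291 expressed probe sets outside the segment. No overlap was found for 35 of 59 (59.3%) and a moderated t above 4 for 13 (22.0%), next to 61.9% and 33.3% of the member probe sets. The interval held the log2 of 1.5 for 50 of 59 (84.7%). Per array, the median deviation of the other trisomic probe sets was -0.25, -0.21 and -0.22 on disomic and 0.21, 0.22 and 0.19 on Ts1Cje arrays. The difference between members and other trisomic genes was not tested, since the members were picked with results known. The median SD within genotypes was 0.18 for the members, 0.25 for the other trisomic and 0.23 for all expressed probe sets. At the higher intensity threshold of A above 7, the 2 medians of M were 0.54 and 0.54.

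**Figure D4:**
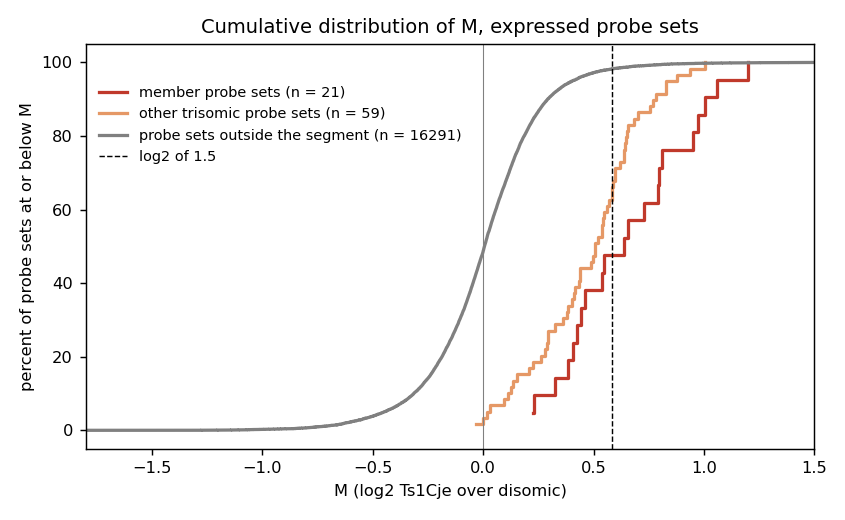
Percent of expressed probe sets at or below each M (horizontal axis, log2 units) for the 21 member probe sets, the 59 other trisomic ones and the 16291 outside the trisomic segment. The curve outside the segment centres at 0.01, and both trisomic curves lie to its right, with medians of 0.64 and 0.51.

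The 5 probe sets that were not expressed had M from 0.00 to 0.14, with a median of 0.02. They belonged to Urb1, Slc5a3 and Dop1b with 1 each and to Cfap298 with 2. Their values were near the floor of 2.23 that the deposited data hold, so they bound nothing about the RNA of those genes.

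Genes of the same pathways that are carried in 2 copies had a median M near 0. Of 83 partner genes listed, 73 had a probe set and 56 were expressed, with a median M of -0.01 and a range of -0.63 to 0.52. M was above 0 for 25 of the 56, against 53.9% of all expressed genes. A moderated t above 4 was found for 2 (Vps29 and Snx3), against 1.13% of all expressed genes, and below -4 for 1 (Ptgr1), against 0.693%, and 0 passed an adjusted p of 0.05 in limma. Groups did not overlap for 5 genes upwards and 3 downwards, where 6.12% and 5.16% of all expressed genes did so, shares near those of the partners. The calls among partners depended on the fit: a variance trend with robust fitting or a fit on expressed probe sets alone left 0 in either direction.

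**Figure D5:**
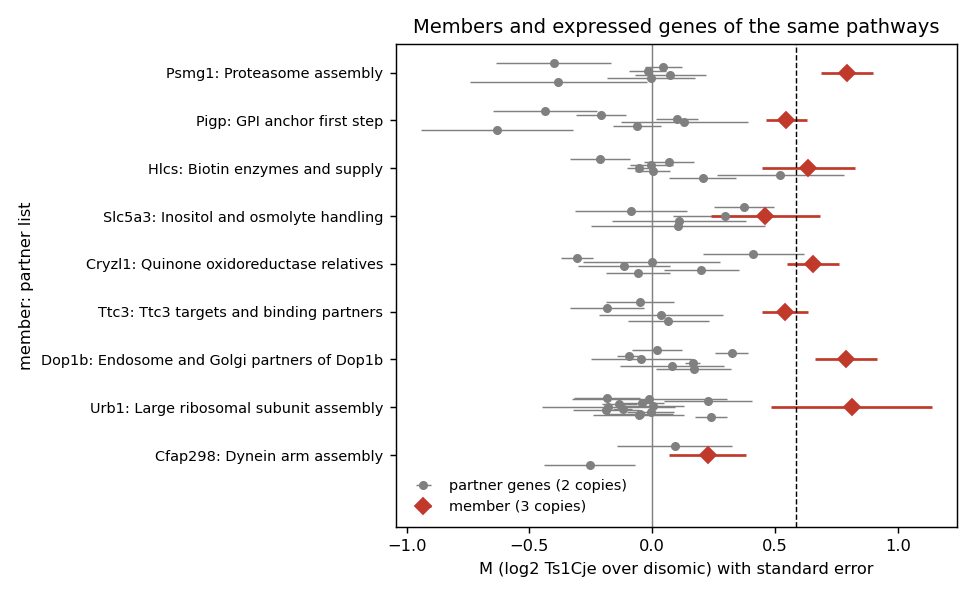
M with its standard error (horizontal axis, log2 units) for 9 members (red diamonds) and the expressed genes of the pathway listed for each (grey points), by the brightest probe set, with the dashed line at the log2 of 1.5. The grey points scatter about 0 between -0.63 and 0.52, and each diamond lies to the right of 0.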

How the data were processed

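Neurosphere RNA from 3 Ts1Cje and 3 disomic female mice was labelled in 2 cycles and hybridised to Affymetrix mouse arrays. The deposited log2 intensities were made by the authors with GCRMA (probe background modelled from base composition, then normalization across arrays and 1 value for each probe set), whose version is not given in the sources used here. The arrays' number limits the precision. Groups follow the sample titles, and all 6 arrays were used.

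Platform annotation named 34945 probe sets by 1 symbol, 932 by several and 9160 by none, and 64 control probe sets were kept apart. Probe sets of several symbols were not used for genes. The trisomic segment was every chromosome 16 gene beyond Sod1. limma 3.58.1 in R 4.3.3 was fitted to all 45037 probe sets with genotype as the only term, with moderated t and Benjamini-Hochberg adjustment over all of them, two-sided. The script was tested on simulated data. Single values were compared by exact permutation tests. A gene was represented by its brightest probe set. All 10 members and every gene past the cutoff in the partner lists were named, along with paralogues and direct partners. The members and lists were chosen with earlier results of these data known. Promoters came from RefSeq (GRCm38.p6). Python 3.11.15 with pandas 2.3.3 and matplotlib 3.10.9 made the tables and figures. Alternatives were a replicate block, leaving out each array, cyclic loess, centring, array weights, a variance trend, a fit on expressed probe sets, other intensity thresholds and means per gene.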

Additional observations from a re-analysis of the deposited data

How the results depend on the processing

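The 6 genes Tmem50b, Cryzl1, Dop1b, Pigp, Ttc3 and Psmg1 kept a moderated t above 4 at their brightest probe set with the replicate block, without each array in turn, after cyclic loess, centring or array weights, with a variance trend and in a fit on expressed probe sets alone. With the mean of expressed probe sets per gene Cryzl1 and Ttc3 did not. No member probe set passed an adjusted p of 0.05 in any of these fits, where the smallest was 0.222, without disomic replicate 2.

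The paper describes littermate pairs, and the labels do not say whether their replicate numbers mark those pairs. Deviations from the group means correlated at -0.17, -0.03 and 0.13 between samples of the same number. Between samples of other numbers they correlated at -0.365 to 0.395. These values cannot show whether the numbers mark pairs, and the main fit did not use them as pairs. With the replicate block, 11 member probe sets had a moderated t above 4 in place of 7, and 2 partner genes were below -4 in place of 1. The block leaves fewer degrees of freedom, and the share of all expressed probe sets past the cutoff under it is not given here. The higher counts are therefore not read as a stronger result for the members. Urb1, Hlcs and, among partners, Urb2 passed with the block, and Mrps6 no longer did. The block changed no other count or median reported by over 1.5 times.

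Leaving out each array in turn gave a member median M of 0.56 to 0.64 and an other trisomic median of 0.43 to 0.49. Member probe sets past a moderated t of 4 numbered 6 to 10, those without overlap 13 to 17, genes whose interval held the log2 of 1.5 8 to 10, and member probe sets past the adjusted p 0. Leaving out an array cannot lower the count without overlap in a fixed set of probe sets, so that range is no check on it. The shares of all expressed probe sets in these fits are not given here, so the member and partner counts have no background. Partner genes numbered 1 to 4 above a moderated t of 4 and 0 to 3 below -4, with a median M of -0.05 to 0.04. For single genes the sign turned without 1 array for Cryz (-0.142 to 0.0434), Slc6a6 (-0.0523 to 0.380), Akt1 (-0.0824 to 0.165) and Dnaaf5, a dynein arm assembly gene that was not expressed (-0.0108 to 0.117), and for Akt1 with means per gene (-0.0776).

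Centring on probe sets outside the segment left 1 partner gene above 4. The variance trend with robust fitting, the fit on expressed probe sets alone and means per gene each left 0 above 4 and 0 below -4. A threshold of A above 7 gave medians of 0.54 for the members and 0.54 for the other trisomic probe sets, and no threshold gave 0.50 and 0.10, since dim probe sets lie at the floor. Counting as expressed by the disomic mean above 5, an alternative chosen after seeing the data, left 7 member probe sets past a moderated t of 4, 13 without overlap and 9 genes whose interval held the log2 of 1.5. Of all probe sets so chosen, 0.952% had a moderated t above 4 and 5.41% had all Ts1Cje arrays above all disomic arrays. In dim probe sets a difference could not be measured, and 3 arrays a genotype leave wide intervals.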

Other observations

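Sod1, the superoxide dismutase gene at the border of the trisomic segment, is not one of the 10 genes and was not counted among the other trisomic genes. The paper's supplement starts the Ts1Cje segment at Sod1 and marks that gene there as not functional. Its brightest probe set (1459976_s_at) gave 13.55, 13.81 and 13.68 on the disomic arrays and 14.13, 14.24 and 14.29 on the Ts1Cje arrays, without overlap and with an M of 0.54 (SE 0.08, moderated t = 6.37, limma), and over the mean of its expressed probe sets M was 0.32 with a moderated t below 4. Probe set 1451124_at gave an M of 0.51 (SE 0.09), also without overlap, while 1435304_at gave 7.94, 8.15 and 8.38 against 8.25, 7.85 and 8.13, an overlap with an M of -0.08 (SE 0.17).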
